A study of Rattus norvegicus with 156 samples.

Results

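In rats whose L5 and L6 spinal nerves had been tied, the spared L4 dorsal root ganglion (DRG) was compared with every L4 ganglion outside the injured side. Samples were chosen by their labels: L4 DRG ipsilateral to spinal nerve ligation (SNL), with and without gabapentin (GPN), against all other L4 DRG. This gave 10 of the 52 RNA pools of the series, 2 spared and 8 uninjured. The spared pools were SNL ipsilateral, from vehicle-treated rats, and SNL+GPN ipsilateral, from rats given gabapentin. The uninjured pools were SNL contralateral, SNL+GPN contralateral, and both sides of Sham, Naive and Naive+GPN rats. Thus the 8 uninjured pools included operated rats, rats given gabapentin, and the opposite ganglia of the ligated rats themselves. Sham surgery exposed the nerves without tying them, and in Naive rats, which had no surgery, the side is a label only.

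Gabapentin, an antiepileptic that is also prescribed for neuropathic pain, was injected intraperitoneally at 100 mg per kg once daily for 7 days, and other rats received saline. Tissue was taken 19 to 21 days after surgery. Ligated rats entered the study only if the paw withdrawal threshold was lowered when retested 12 to 14 days after surgery, so the spared pools come from rats chosen for that behaviour. Each group had 8 to 12 rats, and each pool held RNA of 4 to 6 rats. A treatment had 1 pool per side, and the sources used here do not say whether the 2 sides of a treatment came from the same rats. P-values measure the spread between these pools.

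A DRG holds the cell bodies of sensory neurons, wrapped by satellite glia, with Schwann cells along the axons and resident macrophages between them. Axons of L5 and L6 neurons run through the ligated nerves, while axons of L4 neurons run through an intact spinal nerve and share the sciatic nerve with degenerating L5 fibres. After axotomy, sensory neurons are known to switch on the transcription factor ATF3 and the neuropeptides galanin, NPY and VIP, and to reduce channels and peptides of nociceptors. Macrophages enter or multiply in injured ganglia and carry MHC class II molecules, which present antigen to CD4 T cells. The L4 ganglion bears on pain in this model because its axons still reach the skin.

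RNA of each pool was hybridised to 3 Affymetrix rat arrays, U34 A, B and C, which carry different probe sets. The 10 pools carried the transcripts of a DRG. The neurofilament gene Nefl stood at 142 to 162 times its array's median in the spared pools and 149 to 280.0 times in the uninjured pools, and the myelin gene Pmp22 at 147 to 162 against 151 to 256 times. The neuron genes Nefh, Prph, Scn10a and Calca and the satellite glia gene Fabp7 also overlapped between the groups, while Nefm and Mbp did not. The neurofilament gene Nefm stood at 127 to 137 times in the spared and 143 to 215 times in the uninjured pools. The myelin gene Mbp stood at 65.8 to 71.1 against 77.4 to 157 times. Mbp lies on array C, whose median, the divisor here, was higher in the spared pools (53.3 and 51.8, against 14.6 to 44.4). After normalization 0 of 12 Schwann cell and myelin genes had groups apart. The blood gene Hbb stood at 104 to 114 against 68.9 to 235 times. The fat cell gene Adipoq and the glycine transporter gene Slc6a5 of spinal cord stood at no more than 0.12 and 1.58 times the median in any pool.

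Several pools stood apart technically. The median deposited signal of array C was 53.3 in SNL ipsilateral and 51.8 in SNL+GPN ipsilateral, against 14.6 to 44.4 in the uninjured pools, whose highest was SNL contralateral (exact permutation test, two-sided p = 0.0222, the smallest that 45 choices of 2 pools allow). Medians of arrays A and B overlapped between the groups. On array C the deviations of pools from the probe set means correlated at 0.49 between the 2 spared pools, and at 0.51 and 0.44 between each and SNL contralateral, over 5947 probe sets of the same arrays. Sham contralateral was the dimmest pool on arrays A and C, with medians of 16 and 14.6, and its 3' to 5' signal ratio of GAPDH, which rises as RNA degrades, was 3.4, against 1.02 to 1.40 in the other 7 uninjured pools. SNL ipsilateral held more skeletal muscle RNA. The 27 listed muscle genes on the arrays, taken before the filter, averaged 7.12 on the log2 scale in this pool. The mean was 4.90 in SNL+GPN ipsilateral and 4.72 to 5.53 in the uninjured pools (exact permutation p = 0.111 for spared against uninjured). The creatine kinase gene Ckm stood at 38.9 times the array median in SNL ipsilateral, 1.29 times in SNL+GPN ipsilateral and 1.17 to 4.25 times in the uninjured pools.

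**Figure D1:**
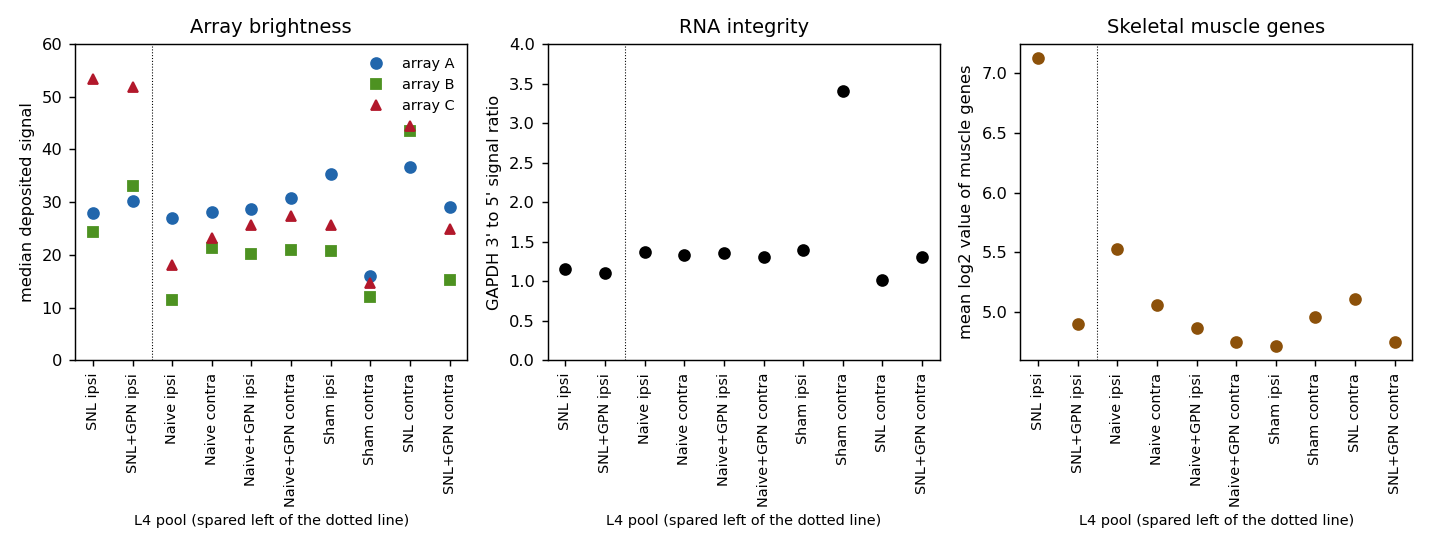
Median deposited signal of arrays A, B and C (left), GAPDH 3' to 5' signal ratio (middle) and mean log2 value of 27 skeletal muscle genes (right) for each of the 10 L4 pools. The 2 spared pools are left of the dotted line. Array C was brightest in both spared pools and SNL contralateral, the GAPDH ratio was highest in Sham contralateral, and muscle genes were highest in SNL ipsilateral.

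The neuropeptide gene Npy rose in the spared ganglion and was the only gene past the threshold. Its normalized signal was 797 in SNL ipsilateral and 496 in SNL+GPN ipsilateral, against a lowest, median and highest value of 51.3, 74.3 and 122 in the 8 uninjured pools. Both spared pools lay far above all uninjured ones. The log2 change was 2.92 (SE 0.25), a fold of 7.57 (limma, adjusted p = 0.000436). The change was 2.59 without SNL ipsilateral and 3.26 without SNL+GPN ipsilateral, with adjusted p of 0.00534 and 0.0023. The call was lost with treatment as a fixed replicate block with side (log2 change 2.41, adjusted p = 0.721, 0 probe sets called). It was also lost within ligated rats, ipsilateral against contralateral, an alternative chosen after seeing the data (2.80, adjusted p = 0.139, 0 called). NPY, a peptide that inhibits transmitter release, is scarce in uninjured rat sensory neurons. In pooled bulk tissue, more cells with a transcript and more transcript per cell cannot be told apart.

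Npy was 1 of 17891 probe sets, or 0.00559%, called at an adjusted p below 0.05, and 0 probe sets were called lower. At an unadjusted p below 0.05 there were 1710, or 9.56%, and among 8902 genes 387 (4.35%) were higher and 551 (6.19%) lower. Both spared pools lay above all 8 uninjured pools for 335 genes (3.76%) and below all of them for 407 (4.57%), and the median log2 change of all genes was -0.02. The count of calls depended on single pools. Without SNL contralateral, 109 probe sets were called higher and 167 lower, of which 215 of 276 were on array C. Without Sham contralateral there were 11 higher and 5 lower, without Sham ipsilateral 6 and 0, without SNL ipsilateral 1 and 13, and without SNL+GPN ipsilateral 22 and 11. Array C held 12.1% of its probe sets with groups apart, array A 7.08% and array B 3.57%. With each array's own median as a covariate, an alternative chosen after seeing the data, Npy was again the only probe set called.

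The other 3 injury markers, like Npy, were highest in SNL ipsilateral, then SNL+GPN ipsilateral, then Sham ipsilateral, without passing the threshold. The order of the remaining pools differed between markers. Galanin mRNA (Gal), which encodes a peptide of regenerating neurons, had signals of 328 in SNL ipsilateral and 195 in SNL+GPN ipsilateral, against 29.6, 51 and 102 as the lowest, median and highest uninjured value. Its log2 change was 2.15 (SE 0.34, limma adjusted p = 0.0892). Atf3, the stress-induced transcription factor, had 224 and 118 in the spared pools, against 34.3, 48.4 and 76.2. Its log2 change was 1.62 (SE 0.26, limma adjusted p = 0.0892). Both spared pools stood above all 8 uninjured pools for both genes. Vip, which encodes vasoactive intestinal peptide and lies on array C, had 79.6 and 39.5 in the spared pools, against 2.05, 6.07 and 20.5, with a log2 change of 2.31 (SE 0.44, limma adjusted p = 0.108). Vip passed the filter on low signals in 0 uninjured pools and in both spared ones, so its separation followed from the filter and is no support. The exact permutation p of Npy, Gal and Atf3 was 0.0222 each, the smallest that the 10 pools allow, 1 of 45. Gal and Atf3 passed the threshold without any 1 of SNL contralateral, Sham contralateral or Sham ipsilateral. Their adjusted p was 0.0154 and 0.0163 without SNL contralateral, 0.0395 and 0.0468 without Sham contralateral, and 0.024 and 0.0306 without Sham ipsilateral. Atf3 also passed without SNL+GPN ipsilateral (0.0184). Vip passed without SNL contralateral (0.028). Without SNL ipsilateral the adjusted p was 0.454 for Gal and 0.488 for Atf3.

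**Figure D2:**
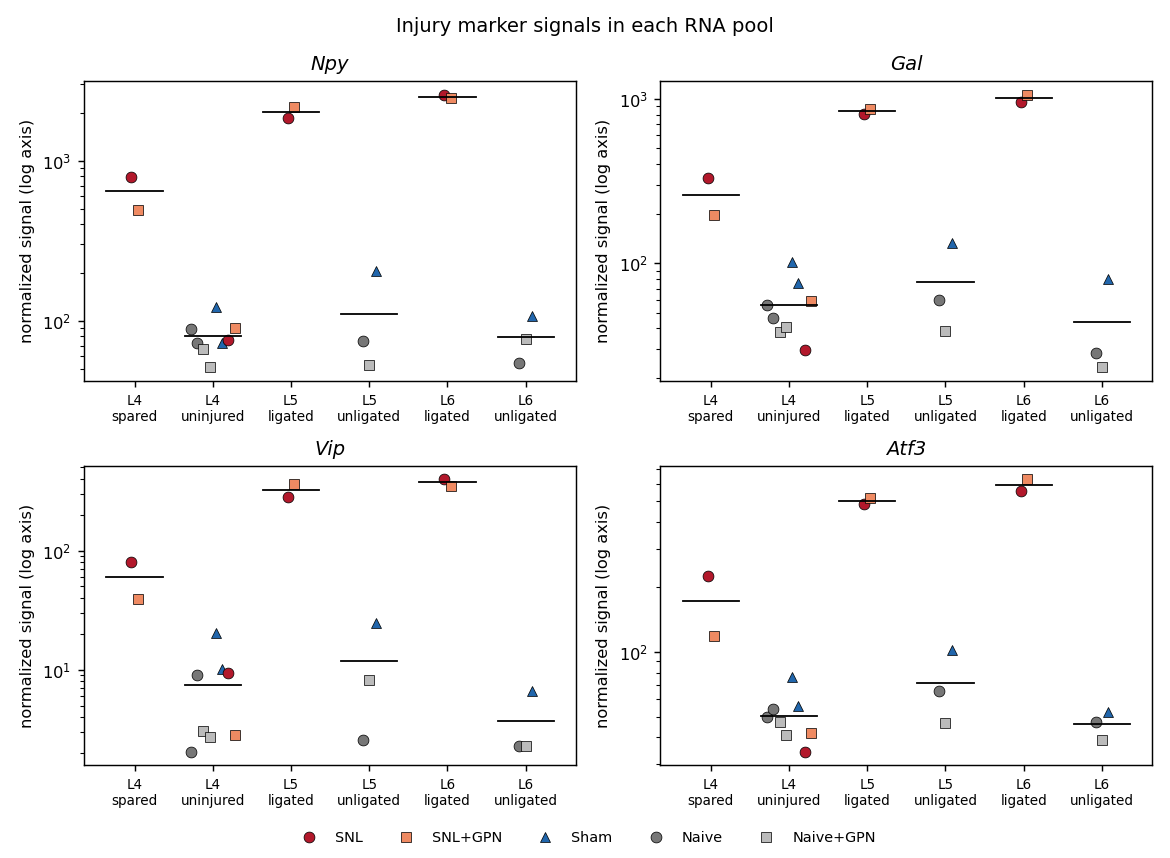
Normalized signal (log axis) of Npy, Gal, Vip and Atf3 in each RNA pool of L4 DRG and of ipsilateral L5 and L6 DRG, with a line at the mean of each group. Levels were normalized separately. Spared L4 pools lie between uninjured L4 pools and the ligated ganglia, and the Sham ipsilateral pool is the highest unligated pool in every panel.

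Pools differed within each side of the comparison. SNL ipsilateral exceeded SNL+GPN ipsilateral for all 4 markers in L4. In the injured L5 ganglion the order was the other way, with Npy at 2170 in SNL+GPN and 1843 in SNL, Gal at 874 and 809, Vip at 359 and 284, and Atf3 at 516 and 485. In L6 the order was mixed, with SNL+GPN against SNL at 2452 and 2589 for Npy, 351 and 397 for Vip, 1062 and 956 for Gal, and 631 and 554 for Atf3. With 1 pool of each kind these differences have no replicate check, and gabapentin, the muscle RNA of SNL ipsilateral and other pool differences cannot be told apart. Among the uninjured pools, Sham ipsilateral was the highest for all 4 markers, at 122 for Npy, 102 for Gal, 20.5 for Vip and 76.2 for Atf3. The ipsilateral Sham pool was also the highest of the 3 unligated pools for Npy in L5 and L6, at 206 and 107, against at most 74.4 and 77.5 in the Naive and Naive+GPN pools. Leaving Sham ipsilateral out raised the L4 change of Npy to 3.01.

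Genes with the smallest p in each direction were next considered, and apart from Npy none passed the threshold. The 10 genes on the higher side were Npy, RT1-Bb, Gal, Atf3, RT1-Da, Reg3b, Gadd45a, Lyz2, Cd74 and Wnt4. All 10 separated the groups completely, as 3.76% of all genes did on this side. They were chosen by p from these same pools, so their separation was largely fixed by the choice and is no support. Of the 10, 9 were further from the uninjured mean in SNL than in SNL+GPN, and for 9 the highest uninjured pool was Sham ipsilateral. Reg3b encodes a secreted lectin that injured sensory neurons make. It had signals of 81.9 and 25.7 in the spared pools, against 0.67, 2.21 and 7.58, and its log2 change was 2.53 (SE 0.43, limma adjusted p = 0.102). Gadd45a, a DNA damage response gene of axotomised neurons, had 259 and 191 against 102, 114 and 149, with a log2 change of 0.90. Wnt4, a secreted signalling protein, had 39.8 and 44.0 against 5.74, 8.34 and 19.8 on array C. A second Wnt4 probe set, on array B, went the other way, with 6.65 and 6.72 in the spared pools against 8.4 to 27.7, a log2 change of -0.65 (limma adjusted p = 0.602), so the probe sets disagreed. Like Vip, Reg3b and the array C probe set of Wnt4 passed the filter in 0 uninjured pools and only through the 2 spared pools, and so had to differ between the groups; 121 of the 8902 genes passed in fewer than 2 uninjured pools.

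On the lower side, the 10 genes were Slc12a3, Dnm1, C20h6orf136, Ptk2b, Lin7b, Urgcp, Zfp777, Bcl11a, Gabbr2 and Ntrk3, with limma adjusted p of 0.102 to 0.22. They too were chosen by p from these same pools, so their separation is no support. Slc12a3, Ptk2b and Bcl11a passed the filter on low signals in 0 spared pools, and Lin7b and Ntrk3 in 1, against 7 or 8 uninjured pools. Those genes were thus kept only through the uninjured pools, where they were high. Dnm1 encodes dynamin 1 of synaptic vesicle recycling. It had 355 and 294 in the spared pools, against 471, 562 and 650.1, a log2 change of -0.77 (SE 0.14). Gabbr2, a subunit of the GABA-B receptor, had 184 and 178 against 228, 264 and 275, while a second, weaker probe set had a log2 change of 0.20 with overlapping groups. Ntrk3 encodes TrkC, the neurotrophin-3 receptor of large sensory neurons. It had 13.8 and 18.4 against 32.3, 42.0 and 70.5, a log2 change of -1.22 (SE 0.27). Lin7b, a scaffold protein of synapses, had 4.25 in SNL ipsilateral and 20.4 in SNL+GPN ipsilateral, against 30.9, 48.9 and 73.9. Bcl11a, a zinc finger transcription factor, likewise had 5.28 and 20.3 against 26.4, 36.4 and 42.5. For Lin7b and Bcl11a the 2 spared pools differed from each other more than for the other 8 genes, as the plot of the smallest p in each direction shows.

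**Figure D3:**
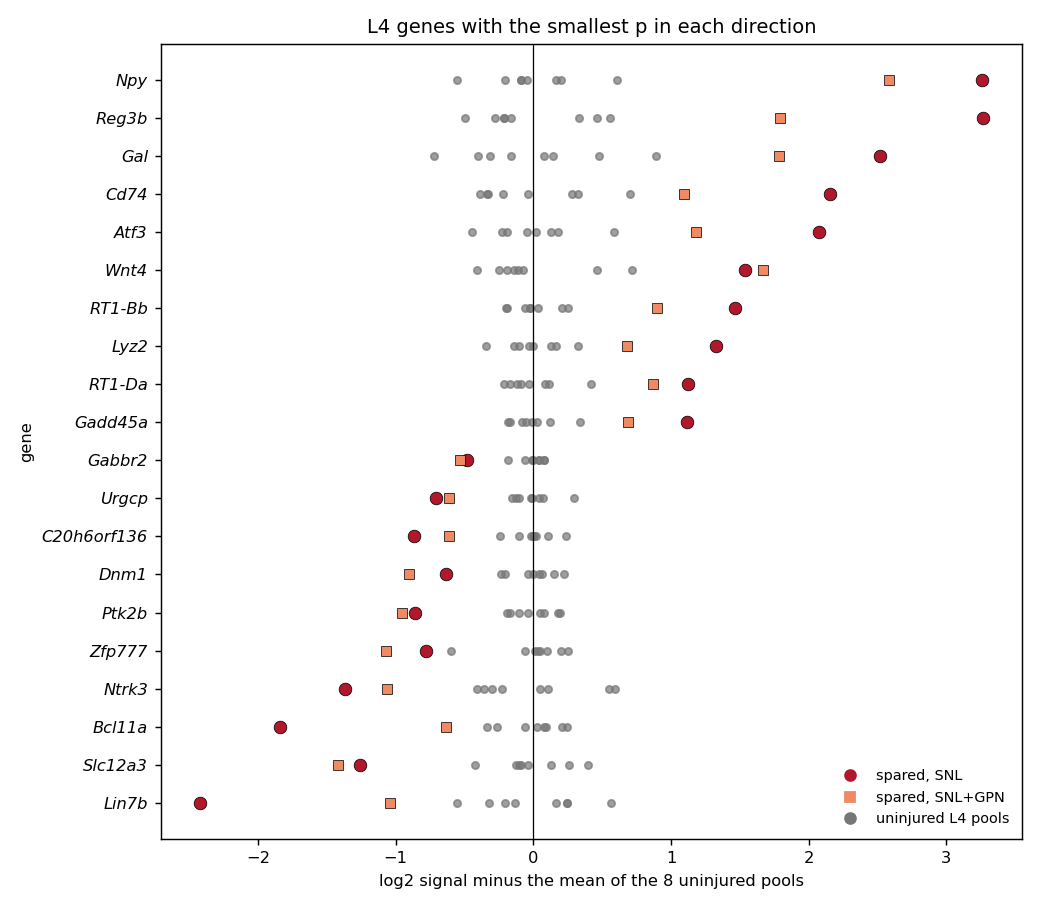
Log2 signal of each L4 pool minus the mean of the 8 uninjured pools, for the 10 genes with the smallest p on each side (circles, SNL ipsilateral; squares, SNL+GPN ipsilateral; grey, uninjured). Both spared pools lie beyond the uninjured pools for all 20 genes, and Npy is the only one past the threshold. The genes were chosen by p from these same pools, so their separation is no support.

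MHC class II genes were the list with the most complete separation after the injury markers. Of 11 genes tested, 9 (81.8%) had both spared pools above all 8 uninjured pools, against 3.76% of all genes, and 0 passed the threshold. All 11 changes were positive, with a median of 0.73 against -0.02 for all genes. Cd74, the invariant chain that guards the peptide groove, had 572 in SNL ipsilateral and 272 in SNL+GPN ipsilateral, against 93.4, 113 and 206. Its log2 change was 1.63 (SE 0.30, limma adjusted p = 0.108), and its L5 change was 3.13. RT1-Bb and RT1-Da encode chains of the class II dimer. RT1-Bb had 149 and 98.7 against 43.0, 49.4 and 60.8, a log2 change of 1.18 (SE 0.17, limma adjusted p = 0.0892). RT1-Da had 443 and 370.3 against 172, 192 and 269.8, a log2 change of 1.00. RT1-Ba and the protease gene Ctss had log2 changes of 0.90 and 0.93, and RT1-Db1, Cd4, RT1-DMb and Ifi30 of 0.73, 0.73, 0.60 and 0.34, all with groups apart. RT1-DMa and Ciita, the class II transactivator, had 0.22 and 0.34 with overlapping groups; the members outside the rule for named genes were added after their values were seen. The class II genes have close relatives, and probe sets may share signal between them. The count was 10 (90.9%) without any 1 of SNL contralateral, SNL ipsilateral or SNL+GPN ipsilateral. The shares of all genes were then 7.3%, 11% and 11.5%.

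Among 16 macrophage genes 3 (18.8%) had spared pools above all uninjured pools, Lyz2, Ctss and Cd53, against 3.76% of all genes, with a list median of 0.30. The count was 5 without SNL contralateral (31.2%, against 7.3% of all genes), 5 without SNL ipsilateral (31.2%, against 11%) and 6 without SNL+GPN ipsilateral (37.5%, against 11.5%). Lyz2, lysozyme of macrophages, had 880.3 and 561 against 272, 343 and 437, a log2 change of 1.01 (SE 0.18, limma adjusted p = 0.108). Cd68 and Fcer1g, which mark the same cells, had log2 changes of 0.39 and 0.55 with overlapping groups. Of 22 complement genes, the pathway named in the series title, 4 (18.2%) had groups apart on the higher side, C3, C1qb, C4a and Serping1, against 3.76% of all genes, and the list median was 0.25. Without SNL ipsilateral the count was 7 higher (31.8%, against 11% of all genes) and 1 lower (4.55%, against 12%). Without SNL+GPN ipsilateral it was 7 higher (31.8%, against 11.5%) and 3 lower (13.6%, against 15.3%). C1qb encodes a chain of C1q, which starts the classical pathway. It had 127 and 64.8 against 14.9, 34.2 and 58.8, a log2 change of 1.29 (SE 0.38, limma adjusted p = 0.294). C3, the central component, passed the filter in 1 uninjured pool and both spared ones. It was kept only through the spared pools, so its separation, counted among the 4, is no support. It had 28.7 and 23.8 against 2.71, 5.55 and 19.5, a log2 change of 1.35 (SE 0.39, limma adjusted p = 0.285). Serping1, the C1 inhibitor, had a log2 change of 0.59 and C4a, of the classical pathway, 0.83. The first-step genes C1qa, C1qc, C1r and C1s had log2 changes of 0.54, 0.16, 0.35 and 0.71 with overlapping groups. In L5, 10 of 21 complement genes were called higher, against 6.18% of all genes.

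Of 23 regeneration genes tested, 6 (26.1%) had groups apart on the higher side, against 3.76% of all genes, and the median was 0.21. Besides Atf3 and Gadd45a, these were Gap43, Csrp3, Gfra1 and Smad1. Without SNL contralateral 9 were apart on the higher side (39.1%, against 7.3% of all genes) and 1 on the lower (4.35%, against 9.71%). Without SNL+GPN ipsilateral 10 were higher (43.5%, against 11.5%) and 1 lower (4.35%, against 15.3%). Without SNL ipsilateral 6 were higher (26.1%, against 11%) and 0 lower (against 12%). Gap43, a growth cone protein, had 806 and 615 against 365, 509.9 and 609.9, a log2 change of 0.51. Csrp3, a LIM domain protein of muscle that injured sensory neurons also make, had 44.9 and 32.4 against 18.2, 20.6 and 29.5, a log2 change of 0.69 in L4 and 2.31 in L5. Gfra1, the co-receptor of GDNF, had 244 in both spared pools against 134, 173 and 197. The matrix list had 5 of 26 genes (19.2%) with groups apart, among them Lum (0.74), Lox (0.92) and Col5a2 (0.45), and its median was 0.22. Without SNL+GPN ipsilateral 15 matrix genes were apart on the higher side (57.7%, against 11.5% of all genes) and 1 on the lower (3.85%, against 15.3%). Without SNL ipsilateral 8 were higher (30.8%, against 11%) and 3 lower (11.5%, against 12%). Adjusted p of all genes named here was 0.235 or more, other than Atf3 and Gadd45a.

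Cacna2d1 encodes the alpha2delta-1 calcium channel subunit, the protein that gabapentin binds. It had 165 in SNL ipsilateral and 132 in SNL+GPN ipsilateral, against 54.4, 68.9 and 95.0. Its log2 change was 1.02 (SE 0.20, limma adjusted p = 0.122), and the L5 change was 1.85. It passed the threshold in 4 of 30 alternatives, among them without SNL contralateral (limma adjusted p = 0.0347), without Sham contralateral (0.0488), and with the GAPDH ratio as a covariate (0.0308). It did not pass with contralateral controls only (0.587), muscle markers as a covariate (0.601) or the fixed replicate block (0.971). The log2 change was 0.86 without SNL ipsilateral and 1.17 without SNL+GPN ipsilateral. Of the other 9 calcium channel genes tested, 0 had groups apart, where 8.34% of all genes did in either direction. Vgf, a neuropeptide precursor, had 263 and 169 against 91.6, 108 and 155, a log2 change of 0.88 (SE 0.19, limma adjusted p = 0.198). Bdnf, a neurotrophin that sensory neurons release in the spinal cord, had 74.1 and 81.9 against 42.6, 47.3 and 61.4. Its log2 change was 0.61 in L4 (SE 0.15, limma adjusted p = 0.254) and -0.07 in L5. Another 5 Bdnf probe sets gave changes of -0.09 to 1.16, so they disagreed. In L6 its log2 change was 0.54. Neither difference passed the test, with 0.61 for L4 minus L5 (adjusted p = 0.248) and -0.00 for L4 minus L6 (0.996).

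Of 11 nociceptor genes 2 (18.2%) had both spared pools below all uninjured pools, against 4.57% of all genes, and the median was -0.17. Scn11a encodes the sodium channel Nav1.9. It had 261 and 377 against 409.7, 465 and 621, a log2 change of -0.63 (SE 0.17, limma adjusted p = 0.271). Trpv1, the heat and capsaicin channel, had 79.4 and 90.8 against 103, 113 and 122, a log2 change of -0.37 (SE 0.12). Without SNL+GPN ipsilateral 5 of the 11 genes (45.5%, against 15.3% of all genes) had groups apart on the lower side, and the median was -0.38. Without SNL ipsilateral 2 (18.2%, against 12%) did, and the median was 0.01. Of 22 potassium channel genes 3 (13.6%, against 4.57% of all genes) were apart on the lower side. These were Kcnj11, Kcnab2 and Kcnh2, with log2 changes of -0.45, -0.28 and -0.36. The potassium channel count was 5 without Sham contralateral (22.7%, against 5.85% of all genes) and 5 without SNL+GPN ipsilateral (22.7%, against 15.3%). In L5 10 of the 11 nociceptor genes and 12 of the 22 potassium channel genes were called lower, against 9.36% of all genes.

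Lists of other cell types were also examined. Among 12 Schwann cell and 9 satellite glia genes, 0 had groups apart, with medians of -0.05 and -0.10. Because 8.34% of all genes had groups apart in either direction, lists this short cannot show a lack of change. Of 20 pan-neuronal genes 1 (5%) was apart on the higher side and 2 (10%) on the lower, against 3.76% and 4.57% of all genes. The pan-neuronal median was -0.08. Rbfox3 (NeuN) had 501 and 557 against 664, 705 and 809, a log2 change of -0.42 (limma adjusted p = 0.261). Skeletal muscle had the highest median after the injury markers, 1.04 over 22 genes, but 0 had groups apart. Atp2a1, the calcium pump of fast muscle, had 421 in SNL ipsilateral and 14.5 in SNL+GPN ipsilateral, against 5.14 to 60.4 in the uninjured pools. The muscle median was -0.08 without SNL ipsilateral and 2.37 without SNL+GPN ipsilateral. With muscle genes as a covariate Npy stayed the only probe set called higher, with 4 called lower.

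**Figure D4:**
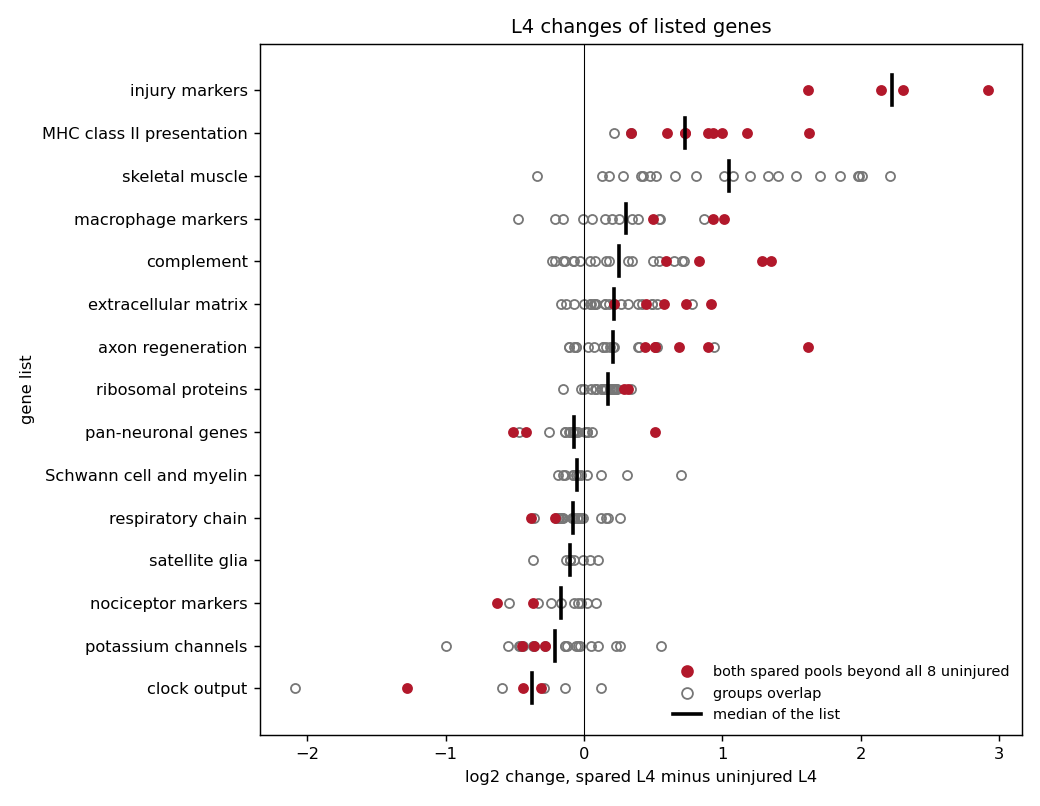
Log2 change, spared minus uninjured L4, of each tested gene of 15 lists (red, both spared pools beyond all 8 uninjured pools; open, overlapping groups; bar, list median). All injury markers and 9 of 11 class II genes are red, while the muscle genes spread to 2.21 with no separation.

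The spared ganglion was then set beside the injured L5 and L6 ganglia, whose ligated pools (SNL, SNL+GPN) were compared with 3 unligated ipsilateral pools. These contrasts use other arrays than the L4 contrast, although the rats may be the same. In L5 537 genes (6.18% of 8692) were called higher and 814 (9.36%) lower. The 537 had a median change of 0.78 in L5 and 0.23 in L4. In L4 448 of them (83.4%) lay in the same direction, against 47% of all genes, and 109 (20.3%) had both spared pools above all uninjured pools, against 3.85%. The 814 had a median of -0.80 in L5 and -0.19 in L4, with 685 (84.2%) in the same direction, against 53%, and 103 (12.7%) apart, against 4.62%. For the 371 genes called higher in L6 (4.26%) the L4 median was 0.26 and 24.5% were apart, and for the 393 called lower (4.51%) it was -0.25 and 17.8%.

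The same direction was seen in each spared pool and on each array. Of the genes called higher in L5, 89.4% lay above 0 in L4 on array A, 82.9% on B and 75.9% on C. Over the 537 genes called higher in L5, the median log2 deviation from the uninjured mean was 0.31 in SNL ipsilateral and 0.17 in SNL+GPN ipsilateral, against -0.03 to 0.09 in the 8 uninjured pools, the highest being Sham contralateral and Sham ipsilateral (0.08). Over the 814 called lower it was -0.26 and -0.11, against -0.12 to 0.10, so SNL contralateral at -0.12 overlapped. On array A alone, whose brightness overlapped between the groups, 26% of the genes called higher and 12.9% of those called lower in L5 were apart in L4, against 3.62% and 4.06% of all its genes. Without SNL contralateral these shares on all arrays were 25% and 25.2%, against 7.4% and 9.8%. Without SNL ipsilateral they were 26.8% and 17.9%, against 11.1% and 12%, and 70.9% and 68.9% of the genes called in L5 lay in the same direction in L4. Without SNL+GPN ipsilateral they were 47.9% and 39.9%, against 11.7% and 15.2%.

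**Figure D5:**
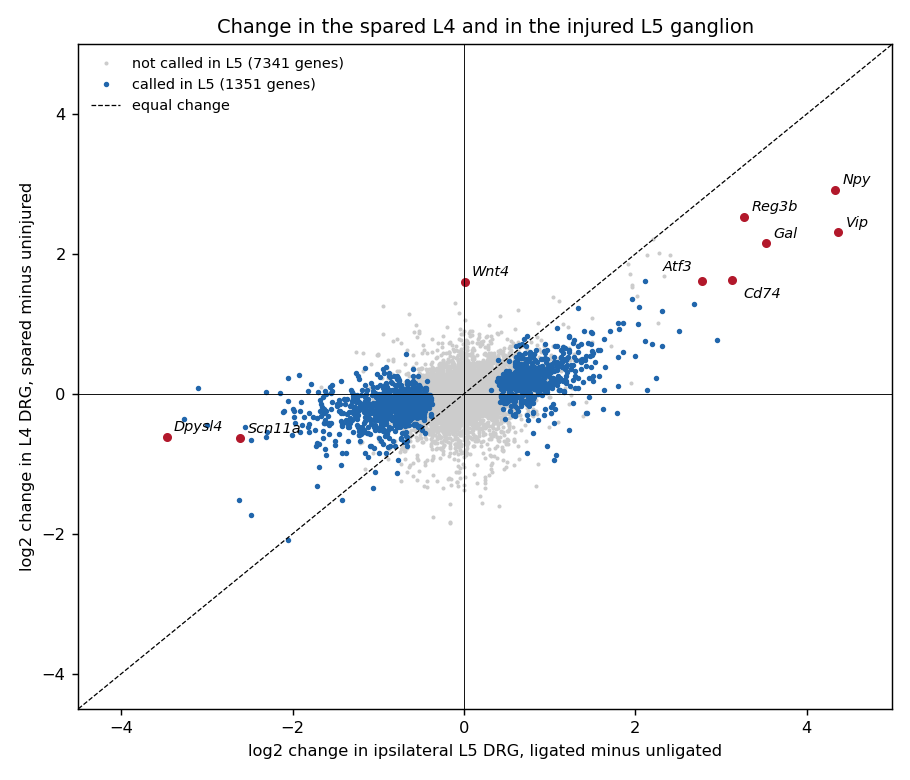
Log2 change in L4 (spared minus uninjured) against log2 change in ipsilateral L5 (ligated minus unligated) for 8692 genes, with the 1351 genes called in L5 in blue and labelled genes in red. Most blue points lie between the horizontal axis and the line of equal change and Wnt4 lies on the vertical axis. The blue genes were chosen by their L5 change, which favours larger values on that axis.

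For Npy the L5 change was 4.33, with mean signals of 2006 in ligated and 111 in unligated pools, and the L6 change was 4.93. The difference between ganglia was tested on the log2 difference of each treatment's ipsilateral L4 and its L5 or L6 pool, 2 ligated against 3 unligated treatments. For Npy it was -1.63 for L4 minus L5 (limma adjusted p = 0.142) and -2.23 for L4 minus L6 (0.105). For L5, 0 of 17437 probe sets passed, while 3524 (20.2%) had an unadjusted p below 0.05. With the arrays as deposited 4801 passed higher and 65 lower, so the count rests on the normalization.

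For L6, 4 of 17568 probe sets (0.0228%) passed, all with a less negative change in L4. Scn11a had a log2 change of -0.53 in L4 and -3.97 in L6, a difference of 3.44 (SE 0.25, limma adjusted p = 0.0231). Sst, the somatostatin of a class of nociceptors, had -0.42 and -5.36, a difference of 4.94. Grik1, a kainate receptor subunit, had -0.48 and -3.41, a difference of 2.93, while a probe set of it on array C had 0.40 in the L4 comparison. A probe set of Rgs4, a regulator of G protein signalling, had 0.04 and -2.83, a difference of 2.87 (adjusted p = 0.0473). Sst and this Rgs4 probe set were named after their values were seen. None of the 4 passed when any 1 treatment was left out.

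Wnt4 and Ntrk3 differed between the injured ganglia by value. On its array C probe set, Wnt4 had a log2 change of 1.60 in L4, 0.01 in L5 and 0.71 in L6, with mean signals of 21.6 and 21.0 in ligated and unligated L5 pools. Ntrk3 had -1.22 in L4, -0.15 in L5 and -0.96 in L6. L5 was not tested against L6, and no difference from L4 passed the test. The test used ipsilateral pools only, in which the L4 change was 1.52 for Wnt4 and -1.29 for Ntrk3. For Wnt4 the difference was 1.51 for L4 minus L5 (limma adjusted p = 0.166) and 0.80 for L4 minus L6 (0.434). For Ntrk3 it was -1.14 (0.156) and -0.33 (0.819). The 2 highest uninjured pools for Wnt4 were both sides of Naive rats, at 19.8 and 15.6.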

How the data were processed

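The deposited values are linear probe set intensity, made with MAS5 per the submitters' processing notes; the sources used here give neither its version nor its scaling target. Because 2% trimmed means of the L4 arrays of a set differed by 1.72-, 3.3- and 2.62-fold (A, B, C), the arrays of each set were quantile normalized over the 10 L4 pools, and L5 and L6 within their own pools. A pseudocount equal to the 20th percentile of a set's values (5.8, 4.5 and 6.2) was added before taking log2, so folds of weak genes are understated. Probe sets were kept if above the 40th percentile of their array in at least 2 of 10 pools, which 2 spared pools alone can meet. A gene is its probe set with the highest mean; 18178 of 26379 probe sets had 1 symbol, 391 several and 7633 none, and symbols were updated through a RefSeq gene table.

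Tests used limma 3.58.1 in R 4.3.3 (eBayes with trend, two-sided), adjusted by Benjamini-Hochberg over all kept probe sets, and were tested on simulated data. The number of arrays limits the precision. The members and the 32 gene lists were chosen with earlier results of these data known. Named genes are the 4 markers, the 10 smallest p per direction (under 10 genes passed), 8 complement genes and up to 4 members per list with the smallest p, here limited to unadjusted p below 0.05, a limit set after the values were seen. Alternatives covered scaling, pseudocount, filter, choice of controls, treatment blocks, covariates and leaving out each pool.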

Additional observations from a re-analysis of the deposited data

Results flagged for a closer look

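Some single pools stood apart from the other uninjured L4 pools by the gap to their nearest neighbour (Dixon's test at the 95% level), which chance alone gives in about 1 in 20 groups. Sham contralateral had 5 of these flags in 86 measures. They were its GAPDH 3' to 5' ratio of 3.4, its beta-actin ratio of 4.62, its array A median of 16, a high Cox6c signal of 121 and a low C4a signal of 16.3. SNL contralateral had 4, an array B median of 43.4, an array C median of 44.4, a low Zfp777 signal of 38.8 and a high Cd68 signal of 111. In Sham ipsilateral, Htr3a was low at 383 and Fcer1g high at 142. In Naive ipsilateral, Kcnab2 was low at 656 and Actn3 high at 29.6. Rbfox3 was high at 809 in Naive contralateral, and Sv2b was low at 307 in SNL+GPN contralateral.

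The ligation change differed between spared L4 and injured L6 for Scn11a, by 3.44 on the log2 scale, and for Grik1, by 2.93 (limma adjusted p = 0.0231 for both).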

How the results depend on the processing

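Npy stayed past the threshold in 28 of 30 alternatives, with log2 changes of 2.41 to 3.26. It missed it with treatment as a fixed replicate block with side (2.41, adjusted p = 0.721, 0 probe sets called) and, an alternative chosen after seeing the data, in ligated rats only (2.80, 0.139, 0 called). A random replicate block of treatment (correlation 0.0476) called Npy alone. Replicate numbers here only name pools, and treatments have no replicates, so the block pairs the sides of a treatment and no more.

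Counts called higher and lower were 3 and 0 with deposited scaling, 66 and 119 without the contralateral pools of ligated rats, 1 and 6 with ipsilateral controls only, 5 and 0 with gabapentin as a covariate, 18 and 11 with the GAPDH ratio as a covariate, and 1 and 4 with muscle markers. Leaving out 1 pool gave 1 to 109 higher and 0 to 167 lower. Averaging all probe sets of a gene gave 9 genes higher and 4 lower. Settings added after seeing the data gave 42 and 11 (without Sham contralateral, GAPDH ratio as a covariate), 7 and 2 on array A alone, and 0 and 0 on B and on C alone. L4 minus L5 gave 4801 and 65 with deposited scaling. L4 minus L6 gave 15 higher with deposited scaling and 0 without a filter, and 0 without any 1 treatment. Where a pool is left out of the spared group, the lone pool is assumed to vary like the others.

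Changes that turned sign, none of them called, were Scn4b (0.18), Rbfox3 (0.14), Rgs4 (0.13) and Rgs10 (0.33) with deposited scaling, Syt4 (-0.11) and Rpl9 (-0.29) with equal medians, and Rgs10 (0.04) and C1qc (-0.24) with the fixed replicate block. Others were C1qc without Sham contralateral with the GAPDH ratio (-0.08) and in ligated rats only (-0.02), C4a with array medians as a covariate (-0.05), and Atp2a1 with the muscle covariate (-0.00). Without 1 pool, Myl1 ranged from -0.05 to 2.84 and Pygm from -0.14 to 2.29, both lowest without SNL ipsilateral. Other causes were not tested.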

Other observations

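Dbp, a transcription factor gene of circadian output, was low in all 4 L4 pools of ligated rats, on both sides. It had 27.2 in SNL ipsilateral, 8.62 in SNL+GPN ipsilateral, 7.26 in SNL contralateral and 47.5 in SNL+GPN contralateral, against 87.2 to 201 in the 6 L4 pools of Sham, Naive and Naive+GPN rats. In ipsilateral L5 it averaged 30.8 in ligated and 153 in unligated pools, a log2 change of -2.05 (limma adjusted p = 0.00572). This grouping of the L4 pools was noticed in the data and was not tested. In the comparison of spared with uninjured L4, Dbp had a log2 change of -2.09 (limma adjusted p = 0.419). Hlf, of the same family, had 5.35 and 5.86 in the spared pools, against 9.18, 22.1 and 33.9, and its contralateral pools of ligated rats were high, at 28.1 and 33.9. Of 8 clock output genes tested 3 had both spared pools below all uninjured pools, Hlf, Nr1d1 and Cry2 (37.5%, against 4.57% of all genes), and the list median was -0.37. Hlf passed the filter on low signals in 7 uninjured pools and 0 spared ones, and its spared signals lay near the pseudocount of 5.8. It was kept only through the uninjured pools, so its separation, counted among the 3, is no support. The count was 5 without SNL+GPN ipsilateral (62.5%, against 15.3%) and 3 without SNL ipsilateral (37.5%, against 12%).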
